A study of Mus musculus with 4 samples.

Results

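Background methylation of the colonic epithelium was examined in 100-kb windows along the 19 autosomes, and the windows described here were those with the lowest levels. They were chosen by their values in colonic intestinal stem cells (ISCs) at birth: a window was taken when its CpGs outside CpG islands (CGIs) had a mean methylation level below 70% in that library, and when 200 or more of its CpGs had 5 or more calls in every library. A call is a read of a CpG as methylated or unmethylated, and a CGI here is a 500-bp stretch with 25 or more CpGs, merged with its neighbours. The rule was met by 997 of 23284 windows (4.28%), out of 24731 windows on the autosomes. The levels in ISCs at birth are therefore given as a description, and comparisons with that library carry no test of the low-background windows.

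The 4 libraries were whole-genome bisulfite sequencing of colon DNA from C57 mice carrying the Lgr5-EGFP-CreER knock-in reporter, which labels ISCs by expression of Lgr5. EGFP-positive ISCs and EpCAM-positive, EGFP-negative differentiated epithelial cells (DIFF) were sorted at postnatal day 0 (P0) and at postnatal day 21 (P21), the start and the end of suckling, giving the groups ISC_P0, DIFF_P0, ISC_P21 and DIFF_P21. Each group was 1 library of DNA pooled from several litters at P0 or several reporter-positive offspring at P21, so that no replicate spread was available, a test on calls compared 2 libraries and not 2 conditions, and all intervals cover counting error of PCR reads without molecular identifiers. The reporter had been crossed from a parent carrying it to a wild-type C57 parent, and all 4 groups shared that background.

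Most CpGs of a mammalian genome are methylated, and unmethylated CpGs are concentrated at CGIs, active promoters and enhancers. Promoters of developmental regulators such as the Hox genes, which pattern the body axis, lie in wide unmethylated valleys that often carry Polycomb marks. Megabase domains of partial methylation are a different feature, known from cultured cells, placenta and tumours, where they cover gene-poor, CpG-poor chromatin. Which of these the low-background windows resembled in length, base composition and gene content is described first.

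The low-background windows did not form megabase-scale domains. Adjacent windows were joined into 765 runs, of which 612 were a lone window, 110 held 2 windows and 23 held 3 windows. The longest were 2 runs of 7 windows, and no run reached the 10 windows that make 1 megabase. At a limit of 75%, 3477 windows passed and 6 runs held 10 or 11 windows, with 6 to 68 protein-coding gene starts and 21 to 115 CGIs each. The windows beside a run had a mean of 77.2% in ISC_P0, and the step at the edge of the runs of 5 or more windows was from 77.7% just outside to 65.1% just inside. The same step was read in the other libraries, with 77.8% and 65.1% in DIFF_P0, 77.5% and 65.3% in ISC_P21, and 76.8% and 64.8% in DIFF_P21.

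**Figure D1:**
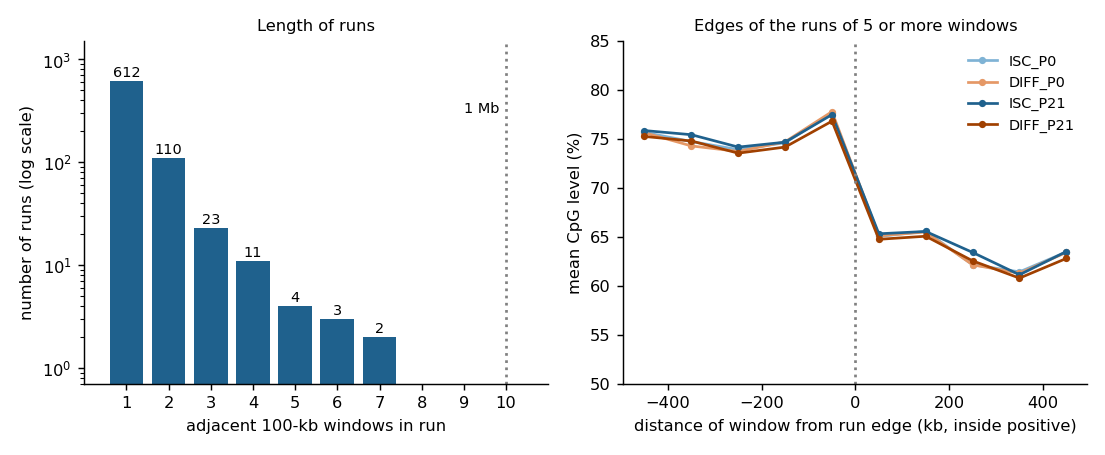
Left, the number of runs of adjacent low-background windows (log axis) by the number of 100-kb windows in the run, with a dotted line at 1 megabase. Right, the mean CpG level (%) of windows by distance in kb from the edges of the 9 runs of 5 or more windows, 1 line per library. No run reaches 1 megabase, and the 4 libraries share the step at the edge, which in ISC_P0 is set by the rule.

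Low-background windows were rich in CpGs, CGIs and genes. Their median GC content was 47.6%, beside 41.4% in the remaining windows, and their median CpG density was 13.3 per kb, beside 7.74 per kb. A share of 5.92% had under 40% GC, whereas 36.6% of the remaining windows did. They held 3770 of 29394 CGIs (12.8%) and 2183 of 20949 protein-coding gene starts (10.4%), and 9.63% of them had no CGI, beside 40.9% of the remaining windows. Chromosome 11 had the highest share of low-background windows, 99 of 1179 (8.40%), and chromosome 16 the lowest, 12 of 931 (1.29%).

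The sequences below give examples of single CpGs, chosen for depth and not as typical of their windows. The printed CpGs had 65 to 100 calls in ISC_P0, where the median over low-background windows was 20 calls per CpG. From each of the 4 longest runs, and for 3 of them from the nearest window on the same chromosome at 85% or more in ISC_P0, the CpG with no other CpG within 35 bp no library above 100 calls and the most calls in its lowest library is printed with 20 bases on each side (mm9, plus strand, CpG in capitals).

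chr15:102529714-102529755 in the run with the Hoxc genes: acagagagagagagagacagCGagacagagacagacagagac
chr15:100387236-100387277 in the nearest high window: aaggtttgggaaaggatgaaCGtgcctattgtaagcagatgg
chr19:45001551-45001592 in the run with Pax2, Tlx1 and Lbx1: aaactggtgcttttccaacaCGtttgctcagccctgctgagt
chr8:123682707-123682748 in the run with Foxf1a and Foxc2: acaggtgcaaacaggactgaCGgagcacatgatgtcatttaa
chr8:119439655-119439696 in the nearest high window: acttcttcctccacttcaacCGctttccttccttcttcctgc
chr9:107504717-107504758 in the run with Sema3b: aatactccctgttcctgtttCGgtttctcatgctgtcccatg
chr9:106634309-106634350 in the nearest high window: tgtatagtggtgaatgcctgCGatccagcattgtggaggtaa

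The CpGs from the runs spread widely, from 5.97% in an intron of Sema3b through 18% and 63.0% to 78.6% of calls methylated in ISC_P0. Those from the 3 high windows lay between 87.3% and 93.8% in ISC_P0, the library that chose these windows. Over the 4 libraries the high CpGs on chromosomes 8 and 9 stayed between 89.6% and 100%. The high CpG on chromosome 15 was at 76.2% in DIFF_P0 (95% Wilson interval 66.06 to 84.03), below the Hoxc-run CpG in that library with overlapping intervals (72.77 to 88.62), and at 96.6% in ISC_P21 and 85.7% in DIFF_P21. The Sema3b CpG was at 4.35% in DIFF_P0, 9.84% in ISC_P21 and 5% in DIFF_P21. The CpG of the Hoxc run went from 78.6% in ISC_P0 and 82.0% in DIFF_P0 to 71.6% in ISC_P21 and 70.97% in DIFF_P21, and that of the Foxf1a run from 63.0% in both P0 libraries to 51.4% and 56.4%. The CpG of the Pax2 run was at 18% and 24.1% at P0 and 24.4% and 12.6% at P21, in the same order. The printed CpGs of the runs thus ranged from near 0 to near 80% in ISC_P0.

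The low-background windows held 888368 CpGs outside CGIs. In ISC_P0, 17.5% of them were at or below 20% methylation, 33.8% lay between 20% and 80%, and 48.7% were at or above 80%, beside 5.15%, 28.2% and 66.6% in the remaining windows. Unmethylated and intermediate CpGs were thus both more frequent than elsewhere, a description, since the windows were chosen for a low mean in this library. Bins of 1 kb with a mean below 30% in ISC_P0 made up 11.8% of the bins in low-background windows and 2.42% elsewhere, and 45.7% of those in low-background windows lay within 2 kb of a CGI. When such bins were left out, 99 of the 997 windows stayed below 70%. When CpGs within 2 kb of a CGI were left out instead, 620 did. Leaving out bins for a low level in ISC_P0 raises the mean in that library by construction, so the 99 is a description. Without these bins the mean over low-background windows in ISC_P0 was 74.5%, beside 81.8% over the remaining windows.

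The level also rose with distance from a CGI. In low-background windows it was 47.4% in ISC_P0 up to 2 kb from a CGI, 64.9% at 2 to 5 kb and 69.8% at 10 to 20 kb, whereas in the remaining windows it was 69.9%, 79.4% and 79.9%. Far from any CGI, at more than 50 kb, low-background windows stood at 69.0% and the remaining windows at 80.2%. The other 3 libraries followed the same course, for example 48.0%, 64.6% and 69.3% in DIFF_P21 at the first 3 of these distances. Because these windows were selected for a low mean, the gap between the 2 sets of windows at any distance is a description.

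**Figure D2:**
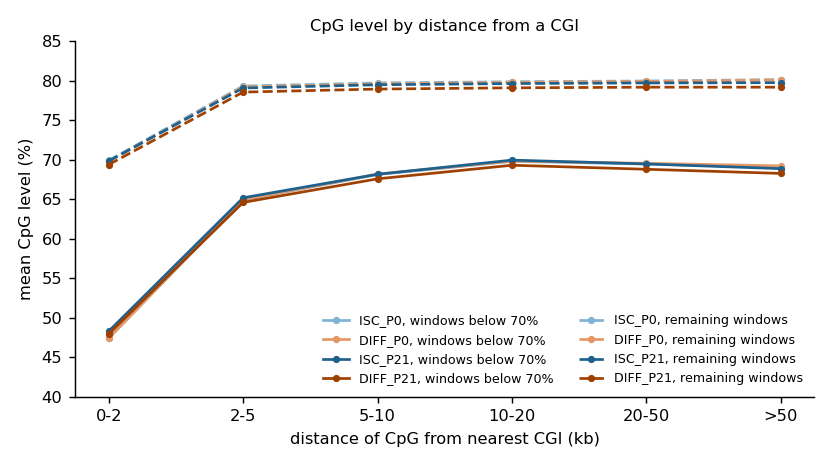
Mean CpG level (%) outside CGIs by distance in kb from the nearest CGI, for low-background windows (solid lines) and the remaining windows (dashed lines), 1 line per library. In both sets the level is lowest up to 2 kb from a CGI, and the lines of the 4 libraries lie within about a point of each other.

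Of the 997 windows, 657 were between 65% and 70% in ISC_P0, 205 between 60% and 65%, 103 between 50% and 60%, 21 between 40% and 50%, 6 between 30% and 40%, and 5 below 30%. The values near the limit were continuous, with 69.995%, 69.996% and 69.999% in the 3 windows just inside it and 70.0045%, 70.008% and 70.009% in the 3 just outside. The window at chr11:3000001-3100000 stood apart in depth, with a median of 385 calls per CpG in ISC_P0 where the median over low-background windows was 20 calls. Its level was 69.7% in ISC_P0, 70.2% in DIFF_P0, 68.2% in ISC_P21 and 68.1% in DIFF_P21.

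Genes of the Hox clusters held the bottom of the range. All but 1 of 40 Hox gene entries with a 5′ end in a tested window started in a low-background window, in 8 windows. The annotation held Hoxa3 in more than 1 entry. The lowest of the windows was chr15:102800001-102900000, with Hoxc9, Hoxc8, Hoxc6, Hoxc5 and Hoxc4 and 18 CGIs, at 18.2% in ISC_P0, 18.1% in DIFF_P0, 18.1% in ISC_P21 and 18.2% in DIFF_P21. Beside it, the window with Hoxc13 to Hoxc10 was at 24.9%, 25.2%, 25.6% and 25.1% in the same order. By these means the 2 windows differed by less than a point between any of the libraries. By pooled calls the first was at 18.75%, 16.3%, 17.4% and 16.9% and the second at 28.2%, 24.2%, 27.9% and 23.9%, with DIFF below ISC at both ages. A 200-bp stretch of the lowest window, in an intron of Hoxc4 and outside CGIs (mm9, plus strand), shows its CpGs in capitals, chosen as the stretch with the most CpGs.

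chr15:102863147-102863346: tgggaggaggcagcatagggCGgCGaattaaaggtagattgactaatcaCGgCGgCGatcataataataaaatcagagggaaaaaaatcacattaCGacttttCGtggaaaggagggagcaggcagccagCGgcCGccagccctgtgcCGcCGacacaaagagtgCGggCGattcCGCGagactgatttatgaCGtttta

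Its 16 CpGs had 1.54% of calls methylated in ISC_P0, 0.437% in DIFF_P0 and none of the calls in ISC_P21 and DIFF_P21.

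The third lowest window, chr9:91200001-91300000, held Zic1 and Zic4, zinc-finger transcription factors of the developing nervous system. It stood at 24.9% in ISC_P0, 25.2% in DIFF_P0, 26.0% in ISC_P21 and 25.7% in DIFF_P21. The window of Cdkn2a and Cdkn2b, inhibitors of the cell cycle, stood at 29.1%, 31.1%, 33.1% and 35.1% in the same order. Its rise of 4.01 points from P0 to P21 in DIFF passed the test (Fisher's exact test, Benjamini-Hochberg adjusted p = 9.50e-08). By pooled calls this window was at 35.2%, 32.6%, 36.6% and 36.2% in the same order, and its change in ISCs was not called. Windows of Hoxd13 to Hoxd4 at 33.5%, Pax6 at 37.6% and Dlx5 and Dlx6 at 38.1% in ISC_P0 came soon after, all of them genes of developmental transcription factors.

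**Figure D3:**
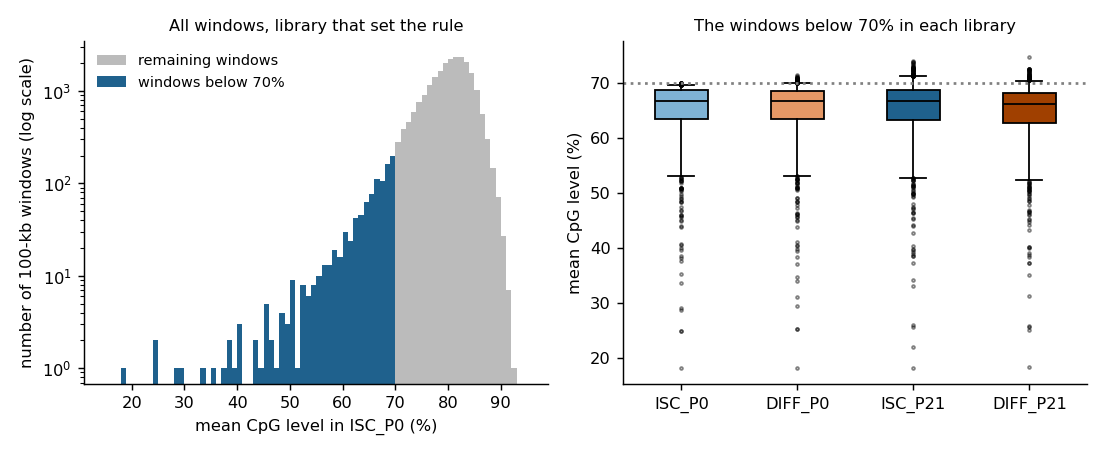
Left, the number of 100-kb windows (log axis) by mean CpG level (%) outside CGIs in ISC_P0, with the 997 low-background windows in blue. Right, the levels (%) of those 997 windows in each library as boxes from the first to the third quartile with the median, whiskers at the 5th and 95th percentiles and points beyond; the dotted line is at 70%. The medians of the 4 libraries lie between 66.2% and 66.8%.

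The 6 longest runs held from 1 to 33 protein-coding gene starts. The run at chr15:102500001-103200000 held the Hoxc cluster, 20 protein-coding gene starts from Atp5g2 to Itga5 and 53 CGIs, and had a mean of 52.2% in ISC_P0, 52.5% in DIFF_P0, 53.0% in ISC_P21 and 52.4% in DIFF_P21. Without its 1-kb bins below 30% the run stood at 69.1%. The run at chr19:44700001-45400000, with the developmental transcription factor genes Pax2, Tlx1 and Lbx1 among 11 gene starts, was at 59.3%, 59.4%, 59.5% and 58.7% in the same order of libraries. The runs of 6 windows were at chr8:123400001-124000000 with 3 gene starts, Foxf1a, Mthfsd and Foxc2 (64.97%), at chr9:107100001-107700000 with 24 from Dock3 to Rbm5 (66.98%), and at chr5:111900001-112500000 with 1, C130026L21Rik (68.2%). The lowest run of 5 windows, chr10:80600001-81100000, had 33 gene starts from Pias4 to Ankrd24 and stood at 64.9%. Between P0 and P21 the 6 runs moved by 1.64 points or less in DIFF.

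Beyond the Hox genes, 58 of 67 genes of the replication-dependent histone clusters and 22 of 24 clustered protocadherins started in low-background windows. The histone genes lay in 8 such windows and the protocadherins in 4, so that neighbours sharing a window are not separate observations. In ISC_P0 the histone windows ran from 44.0% to 69.8% and the protocadherin windows from 63.6% to 69.0%. The histone window with the lowest level, with Hist1h4h to Hist1h4d at chr13:23600001-23700000, was at 44.0% in ISC_P0, 43.8% in DIFF_P0, 44.0% in ISC_P21 and 44.2% in DIFF_P21. Histone genes include near-identical copies and clustered protocadherins are close paralogs, so that reads may be placed on the wrong copy and these levels are less certain. By contrast 3 of 1035 olfactory receptor genes, 5 of 265 vomeronasal receptor genes and none of 33 taste receptor, 59 serpin, 33 cornified envelope or 26 prolactin family genes started in them. None of 18 UDP glucuronosyltransferase genes, 1 of 49 defensin, 1 of 21 contactin, neurexin and neuroligin, 6 of 98 cytochrome P450, 7 of 97 keratin and 2 of 24 killer cell lectin-like receptor genes did. Zinc finger protein genes (37 of 358), housekeeping genes (2 of 18), solute carriers (41 of 343) and GABA receptors (2 of 16) were close to the 10.4% of all protein-coding genes. Somewhat larger shares were counted for the Ceacam family with the pregnancy-specific glycoproteins (4 of 28), voltage-gated potassium channels (14 of 94), cadherins and protocadherins outside the clusters (5 of 33) and glutamate receptors (6 of 29).

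Genes of colonic epithelial identity were also frequent, with 12 of 24 starting in low-background windows, as were intestinal stem cell genes, with 6 of 18. The identity genes there included the transcription factor genes Hnf4a, Cdx1 and Cdx2, and Cdh1, Krt8, Krt18, Krt19, Elf3 and Epcam. The stem cell genes there were Lrig1, Ephb2, Rnf43, Bmi1, Ephb3 and Msi1. Most of their promoters were already unmethylated in ISC_P0, with 0.1% at Lrig1, 0.747% at Cdh1 and 0.905% at Krt8 within 500 bp of the start, whereas the Krt19 start stood at 59.0% in ISC_P0, 41.8% in DIFF_P0, 41.0% in ISC_P21 and 32.8% in DIFF_P21. Over all 2171 promoters in low-background windows with enough calls, 69.8% were below 10% in ISC_P0 and 12.4% above 60%, beside 58.5% and 28.5% of the promoters in the remaining windows.

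Library depth and identity were as follows. Each library held 1023427645 to 1188114423 calls. Of the autosomal calls, 64.2% in ISC_P0, 51.0% in DIFF_P0, 62.9% in ISC_P21 and 52.8% in DIFF_P21 lay at CpGs over 1000 calls. Such CpGs were left out of the tests. The median over low-background windows of the median calls per CpG was 20 in ISC_P0, 34 in DIFF_P0, 21 in ISC_P21 and 28 in DIFF_P21. At this depth counting error alone gave a 95% interval of about 0.747 points on each side of a window's P0 to P21 change in DIFF. Promoters of 7 of 9 epithelial markers, Epcam and Vil1 among them, were at 5.34% or less in every library, with Cdh17 and Krt20 at 17.9% to 56.2%. Promoters of 6 of 6 blood cell markers were at 55.1% to 89.2%, and those of the endothelial markers Pecam1 and Cdh5 at 48.7% to 75.5%. Mesenchymal markers ranged from near 0 at Vim and Pdgfra to 48.8% at Acta2, and the part of other cell types in the results was not tested.

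Low-background windows stayed low in the other libraries. Of the 997 windows, 945 were also below 70% in DIFF_P0, 877 in ISC_P21, 920 in DIFF_P21 and 840 in all 4 libraries. The median over the windows was 66.7% in ISC_P0, 66.8% in DIFF_P0, 66.8% in ISC_P21 and 66.2% in DIFF_P21. Across the windows the levels of the 2 populations had Pearson's r of 0.994 at P0 and 0.994 at P21, and those of the same population at the 2 ages had r of 0.945 in ISCs and 0.946 in DIFF (n = 997 windows, which share libraries and sequence). Over all 23284 windows the values were 0.988, 0.989, 0.965 and 0.966 in the same order.

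From P0 to P21 the median change in DIFF was -0.638 points in low-background windows and -1.01 points over all windows. In ISCs, where the rule had used the P0 library, it was 0.078 and -0.489 points. The size of these medians depended on the age that chose the windows: with the same limit applied to ISC_P21, 1088 windows passed and the median change in DIFF was -1.04 points, close to that of all windows. Since ISC_P0 and DIFF_P0 levels ran together, the choice at P0 bears on the DIFF change as well.

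Single windows were called lower or higher when Fisher's exact test on their summed calls gave an adjusted p below 0.05 over all windows and the mean level differed by more than 3 points. From P0 to P21 in DIFF, 57 low-background windows were called lower (5.72%), where 4.09% of all windows were, and 42 were called higher (4.21%), where 0.52% of all windows were. When the windows were chosen on ISC_P21 in place of ISC_P0, an alternative added after the data were seen, 116 were called lower and 22 higher. With pooled calls in place of the mean over CpGs, which chose 1026 windows, 112 were called lower, beside 4.59% of all windows, and 43 higher, beside 0.683%. In ISCs 46 were called lower, beside 1.95% of all windows, and 73 higher, beside 1.19%, and nothing is read from these as the rule used ISC_P0.

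**Figure D4:**
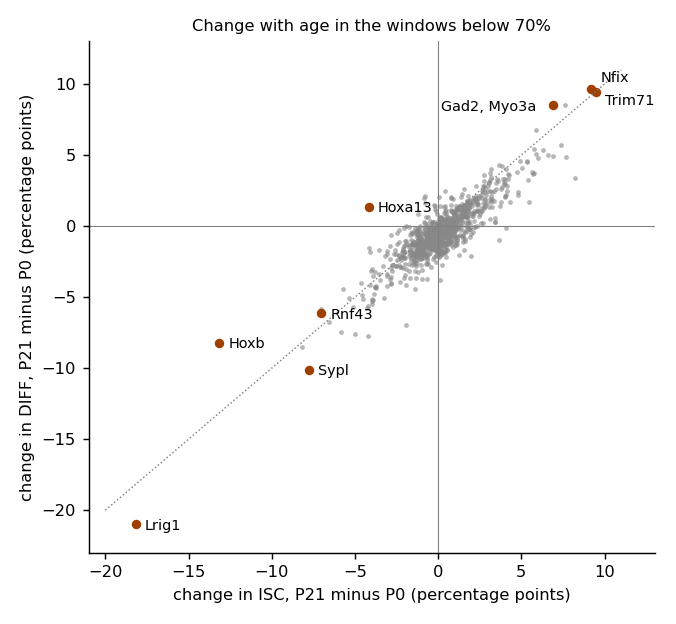
Change in mean CpG level from P0 to P21 in ISC (x axis, percentage points) and in DIFF (y axis, percentage points), 1 point per low-background window (997 points), with the diagonal dotted and selected windows in red named by a gene. Most points lie near the diagonal, the Lrig1 window is the lowest at -18.2 and -20.98 points, and the Hoxa13 window lies apart at -4.18 and 1.34 points.

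The largest fall was at Lrig1, a negative regulator of growth factor receptors that marks intestinal stem cells. Its window, chr6:94600001-94700000, was at 55.4% in ISC_P0, 58.3% in DIFF_P0, 37.2% in ISC_P21 and 37.3% in DIFF_P21, which fell by 20.98 points in DIFF. Of its 93 bins of 1 kb, 47 were lower by more than 15 points in DIFF, 43 in ISCs and 40 in both. The longest stretch of such bins, chr6:94629001-94649000, lay inside Lrig1, short of the gene's 5′ end, and held the start of another annotated transcript of the gene. It had 45.7% of calls methylated in ISC_P0 (95% Wilson interval 44.2 to 47.2) and 47.7% in DIFF_P0 (46.4 to 48.9), against 3.34% in ISC_P21 (2.86 to 3.90) and 4.82% in DIFF_P21 (4.29 to 5.41). Both P0 libraries were thus far above both P21 libraries.

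Within that stretch, the 200 bases outside CGIs whose CpGs fell most in DIFF lay in an intron of Lrig1 (mm9, plus strand, CpGs in capitals).

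chr6:94632235-94632434: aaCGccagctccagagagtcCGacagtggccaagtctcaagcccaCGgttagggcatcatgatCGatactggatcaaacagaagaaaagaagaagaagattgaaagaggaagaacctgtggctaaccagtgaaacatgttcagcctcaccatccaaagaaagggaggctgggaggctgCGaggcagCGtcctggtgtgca

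Calls there were methylated at 67.6% in ISC_P0, 74.7% in DIFF_P0, 1.05% in ISC_P21 and 2.16% in DIFF_P21.

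Further windows among the 5 with the largest falls in DIFF held Sypl, the Hoxb cluster and Ceacam1. The Sypl window, chr12:33600001-33700000, was at 68.1% in ISC_P0, 69.7% in DIFF_P0, 60.3% in ISC_P21 and 59.5% in DIFF_P21 (adjusted p in DIFF = 8.13e-70, Fisher's exact test). The Ceacam1 window, named for an adhesion molecule of the epithelium, was at 68.4%, 70.02%, 64.2% and 62.3% in that order, and its moved stretch at chr7:26216001-26226000 lay outside annotated genes. In both of these windows both populations at P21 were below both at P0.

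The Hoxb window, chr11:96100001-96200000 with Hoxb9 to Hoxb3, went from 34.0% in DIFF_P0 to 25.8% in DIFF_P21 and was at 35.2% in ISC_P0 and 22.0% in ISC_P21. Its longest stretch that fell, chr11:96126001-96132000, spans an exon of Gm53 and the start of Mir196a-1, a microRNA gene of the cluster, and went from 27.5% (25.2 to 29.8) to 7.09% (5.83 to 8.61) of calls in DIFF, with 28.6% and 5.52% in ISCs. In DIFF no other Hox window was called lower, and in ISCs the Hoxa13 and Evx1 window was, from 57.5% to 53.3%. The Hoxd window rose by 3.65 points in DIFF (adjusted p = 5.52e-24, Fisher's exact test), from 34.7% to 38.3%, and was at 33.5% and 39.2% in ISCs. The Hoxb13 window was at 48.4% in both P0 libraries, 49.2% in ISC_P21 and 50.4% in DIFF_P21, a change below 3 points. In all, 1 of the 8 Hox windows was called lower and 1 higher in DIFF, beside 4.09% and 0.52% of all windows. The 200 bases outside CGIs that fell most in the Hoxb stretch, outside annotated genes and nearest to Hoxb9, are shown (mm9, plus strand, CpGs in capitals).

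chr11:96130420-96130619: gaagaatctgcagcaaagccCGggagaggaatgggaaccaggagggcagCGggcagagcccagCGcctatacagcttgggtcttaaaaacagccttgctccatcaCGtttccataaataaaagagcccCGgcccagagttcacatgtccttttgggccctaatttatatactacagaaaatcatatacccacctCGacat

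Calls there were methylated at 25.5% in ISC_P0, 44.3% in DIFF_P0, 10.3% in ISC_P21 and 12.2% in DIFF_P21.

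The largest rises were at Nfix, in 2 adjacent windows, at Trim71, at Gad2 and at Bahcc1. Nfix, a transcription factor gene read from the minus strand, lay in chr8:87200001-87300000, which went from 60.7% to 69.2% in DIFF, and in chr8:87300001-87400000, which went from 62.5% to 72.2%, with 62.2% to 69.8% and 64.2% to 73.4% in ISCs. The window of Trim71, an RNA-binding regulator of developmental timing, and of the chemokine receptor gene Ccr4 was at 60.3% in ISC_P0, 59.7% in DIFF_P0, 69.8% in ISC_P21 and 69.2% in DIFF_P21 (adjusted p in DIFF = 1.33e-129, Fisher's exact test). The Gad2 window went from 66.3% to 74.8% in DIFF and the Bahcc1 window from 65.8% to 72.6%. All 5 windows left the range below 70% in at least a P21 library or came within a point of it.

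The longest stretch of bins that rose held 12 of the 18 bins higher by more than 15 points in DIFF in the Nfix window at chr8:87300001-87400000, and 6 of 20 in the Trim71 window. In Nfix, chr8:87301001-87314000, an intron, rose in DIFF from 25.6% (24.5 to 26.6) to 61.7% (60.5 to 62.9) of calls, with 35.4% and 69.4% in ISCs. In Trim71, chr9:114454001-114461000, also intronic, rose from 15.03% (13.7 to 16.5) to 57.3% (55.1 to 59.5), with 20.04% and 59.8% in ISCs. The 200 bases outside CGIs with the largest rise in each are printed below (mm9, plus strand, CpGs in capitals), with both genes read from the minus strand.

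Nfix intron, chr8:87304177-87304376: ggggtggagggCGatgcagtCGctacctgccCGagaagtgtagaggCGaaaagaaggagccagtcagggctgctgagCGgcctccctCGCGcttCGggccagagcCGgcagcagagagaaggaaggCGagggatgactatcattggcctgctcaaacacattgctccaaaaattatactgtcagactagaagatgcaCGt
Trim71 intron, chr9:114455450-114455649: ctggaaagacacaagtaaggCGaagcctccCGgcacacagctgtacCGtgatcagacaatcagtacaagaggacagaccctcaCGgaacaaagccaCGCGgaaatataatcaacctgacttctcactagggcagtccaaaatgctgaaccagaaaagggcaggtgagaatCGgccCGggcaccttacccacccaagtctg

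The Nfix sequence was at 30.7% in ISC_P0, 25.1% in DIFF_P0, 86.9% in ISC_P21 and 87.5% in DIFF_P21. The Trim71 sequence was at 28.7%, 24.9%, 73.0% and 62.3% in the same order.

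Bins that moved by more than 15 points were more frequent in the windows called. In the 57 windows called lower in DIFF, 14.5% of 1-kb bins were lower by more than 15 points and 1.49% higher by as much, beside 3.37% and 2.13% in the 898 windows not called. In the 42 windows called higher, 10.2% of bins were higher and 1.95% lower. These windows were chosen for their change in the same libraries, so the shares are a description. Bins at or above 30% in ISC_P0 also shifted in DIFF, by -4.52 points on average in the windows called lower and by 3.45 points in those called higher.

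Among the windows of colonic identity genes, 4 of 11 were called lower in DIFF and none higher, with a median change of -2.24 points. Over the 824 low-background windows with any protein-coding gene start the counts were 46 lower and 37 higher and the median was -0.598 points. The 4 windows were those of Krt19 (59.4% to 53.7%), Elf3 (61.4% to 57.1%), Epcam (68.7% to 64.5%) and Krt8 with Krt18 (55.8% to 52.6%), keratins, an epithelial transcription factor and an adhesion molecule. Among the 6 stem cell gene windows, 4 were called lower and none higher, with a median of -4.73 points. Beside Lrig1 these were Rnf43, a ligase that removes Wnt receptors from the membrane (66.2% to 60.1%), and Ephb2 and Ephb3, receptors that position cells along the crypt (65.3% to 60.1% and 68.9% to 64.7%). Bmi1 (69.4% to 68.1%) and Msi1 (69.96% to 68.1%) did not pass. In ISC_P21 the windows of Rnf43, Ephb2 and Ephb3 were at 59.7%, 60.6% and 65.1%. Both lists were drawn up with results of these data known, so the counts are a description of the lists and not independent evidence of a direction.

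CGIs had been left out of the rule and were read in the same windows. The 3764 CGIs tested in low-background windows had a mean level of 17.7% in ISC_P0, 17.1% in DIFF_P0, 18.8% in ISC_P21 and 18.2% in DIFF_P21, with SDs of 29.8 to 30.7 over CGIs, and 71.9% were below 10% in ISC_P0, beside 45.6% of those in the remaining windows. A CGI was called when Fisher's exact test gave an adjusted p below 0.05 over all CGIs and the level differed by more than 15 points. From P0 to P21 in DIFF, 69 were higher, beside 0.829% of all CGIs, which is 1.83% of the CGIs in low-background windows, and 10 were lower (0.266%), beside 0.14%. In ISCs 86 were higher, beside 1.05%, and 21 were lower, beside 0.307%. The background is lower among CGIs of the remaining windows, where 0.681% were called higher in DIFF. Since CGIs of low-background windows were more often below 10% at P0, the choice on ISC_P0 bears on these counts as well. They are a description, and CGIs were not counted with windows chosen on ISC_P21.

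The largest CGI gains in DIFF with the same sign in ISCs were in an exon of Jakmip1, 3827 bp from Foxa1, in an exon of AI464131, at a transcript start of Ptges, which makes prostaglandin E, and in an exon of Nfix. At Jakmip1, chr5:37482185-37483173, the level was 32.0% in ISC_P0 and 23.8% in DIFF_P0, and 77.5% in ISC_P21 and 77.3% in DIFF_P21. Near Foxa1, a pioneer transcription factor of the gut, chr12:58650935-58651784 went from 30.01% to 81.2% in DIFF and from 36.7% to 85.7% in ISCs. AI464131 went from 27.1% to 68.6%, Ptges from 18.3% to 59.5% and Nfix from 19.1% to 59.8% in DIFF. In all 5 the P21 libraries stood above the P0 libraries, a description of CGIs that were chosen for a gain in both populations.

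The largest losses were in exons of Sphk2, a sphingosine kinase, Trim46, Epcam and Ephb3, and 4743 bp from Tmem30b. The Epcam CGI, chr17:88039343-88040215, was at 73.7% in ISC_P0 and 62.1% in DIFF_P0, and at 19.7% in ISC_P21 and 21.8% in DIFF_P21. Sphk2 went from 65.4% to 13.6%, Trim46 from 83.1% to 40.03%, Ephb3 from 88.8% to 60.4% and the CGI near Tmem30b from 26.1% to 2.05% in DIFF. Thus Epcam, whose promoter was at 0.506% or less throughout, lost methylation at an exonic CGI. The 200 bases of that CGI with the largest fall are shown (mm9, plus strand, CpGs in capitals).

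chr17:88039675-88039874: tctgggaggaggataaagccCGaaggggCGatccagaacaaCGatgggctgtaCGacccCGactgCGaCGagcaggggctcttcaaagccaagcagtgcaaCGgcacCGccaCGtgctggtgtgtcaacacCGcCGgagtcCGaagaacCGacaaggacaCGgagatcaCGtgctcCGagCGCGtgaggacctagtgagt

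Calls there were methylated at 80.5% in ISC_P0, 69.4% in DIFF_P0, 22.3% in ISC_P21 and 24.9% in DIFF_P21.

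**Figure D5:**
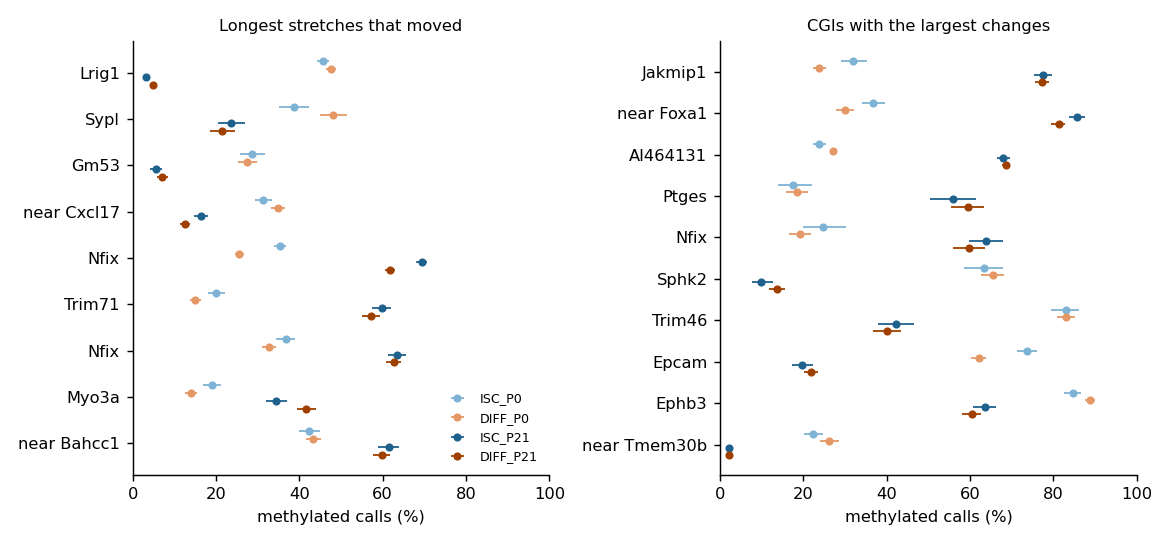
Share of calls methylated (%) with 95% Wilson intervals in each library, left for the longest stretch that moved in 4 of the 5 windows with the largest falls and in the 5 with the largest rises in DIFF, right for the 5 CGIs with the largest gains and the 5 with the largest losses. Nfix stands in 2 places on the left, for its 2 windows. At every locus the P0 libraries and the P21 libraries fall into separate ranges, which is a description, since the loci were chosen for their change in DIFF.

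By the mean over CpGs, differences between DIFF and ISCs were small at P21, and the values at P0 are a description. At P0 no low-background window was called lower or higher, beside 0.0988% and 0.0258% of all windows, and the median difference, DIFF minus ISC, was 0.082 points. Nothing is read from the P0 values, as the rule used ISC_P0. In windows chosen on DIFF_P0 the median difference at P0 was -0.027 points. At P21, where the rule used neither library, the median was -0.582 points, beside -0.556 points over all windows, and DIFF was the lower in 84.9% of low-background windows and 79.9% of all windows. With pooled calls in place of the mean over CpGs, 80 of 1026 windows were called lower and 20 higher at P0, beside 1.56% and 0.412% of all windows, and 121 were called lower and 5 higher at P21, beside 2.6% and 0.0773%. The median difference was then -0.46 points at P0, beside -0.235 points over all windows, and -1.25 points at P21, beside -0.675 points. CGIs gave 10 lower and 6 higher at P0, beside 0.218% and 0.102% of all CGIs, and 13 lower and 5 higher at P21, beside 0.201% and 0.116%.

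The windows called at P21 were 1 lower, beside 0.434% of all windows, and 2 higher, beside 0.0129%, and both of those called higher held Hox genes. DIFF was higher at Hoxb9 to Hoxb3 (25.8%, with 22.0% in ISC_P21; adjusted p = 0.00274, Fisher's exact test) and at Hoxa13 and Evx1 (56.6%, with 53.3%; adjusted p = 9.39e-07, Fisher's exact test). These levels are means over CpGs, whereas the test used summed calls. By pooled calls DIFF was at 23.9% and ISC at 22.6% in the Hoxb window, and at 55.6% and 53.0% in the Hoxa13 window, differences below the 3 points that a call required. No low-background window was called at P21 with windows shifted by 50 kb or at a difference of 5 points, where the share of all windows was not counted.

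The surroundings of a CpG went with its change. Isolated CpGs in low-background windows, with no other CpG within 35 bp, changed by -1.04 points on average from P0 to P21 in DIFF, and those flanked by A or T on both sides by -1.94 points, while CpGs with a neighbour changed by -0.126 points. In the remaining windows the same classes changed by -1.33, -2.46 and -0.352 points. CpGs inside protein-coding genes of low-background windows were at 65.7% and those outside at 63.8% in DIFF_P21, and in the remaining windows at 79.4% and 77.8%.

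The 99 windows that stayed below 70% without their 1-kb low bins had a median GC content of 49.6% and a median of 4 CGIs, and without such bins 81 of them were also below 70% in DIFF_P0, 83 in ISC_P21 and 88 in DIFF_P21. Lowest among them was the Hoxd window at 53.3%. Also among them were 2 adjacent windows near Atg7, an autophagy gene, at chr6:114400001-114600000. In these, 0.378% and 7.47% of CpGs lay in low bins, where the median over low-background windows was 13.3%. The window with the start of Atg7 was at 52.3% in ISC_P0, 52.3% in DIFF_P0, 52.3% in ISC_P21 and 50.5% in DIFF_P21, with 56.0% GC. In ISC_P0, 50.3% of its CpGs lay between 20% and 80% and 22.8% at or below 20%, beside 33.8% and 17.5% over all low-background windows. By pooled calls this window was at 51.8% in ISC_P0, 46.8% in DIFF_P0, 52.6% in ISC_P21 and 46.0% in DIFF_P21. At P21 DIFF was lower than ISC on the summed calls (adjusted p = 1.55e-38, Fisher's exact test with Benjamini-Hochberg adjustment), whereas its mean levels differed by less than the 3 points that a call required. The median was 11 calls per CpG in ISC_P0 and 26 in DIFF_P0, fewer than in the typical low-background window. These windows were singled out after their values were seen.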

How the data were processed

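Colon DNA of 4 sorted cell pools, 1 library per group, was converted with the EZ DNA Methylation-Direct kit and sequenced as whole-genome bisulfite libraries. Reads were trimmed and mapped to mm9 by the authors, and the submitters' processing notes name Bismark and Bowtie, with versions not given in the sources used here. The deposited files hold counts, made by the authors, of all calls and of methylated calls at each cytosine of a CpG. Another deposited column is the fraction of calls methylated, computed by the authors, and levels were recomputed from the counts. No column belonged to no sample (0 columns).

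Both strands of a CpG were summed. Window levels were the unweighted mean over CpGs outside CGIs with 5 or more calls in every library, and stretches, CGIs and printed sequences were given as pooled calls with Wilson 95% intervals. Windows and CGIs were compared between 2 libraries by two-sided Fisher's exact tests on summed calls with Benjamini-Hochberg adjustment over all windows or CGIs, leaving out CpGs over 1000 calls. The calling of windows was tested on simulated calls drawn at a single level per window and library. These had no spread between CpGs, so the test does not cover the difference between the mean over CpGs and pooled calls. Genes followed the mm9 GENCODE annotation and were placed by their 5′ ends, and promoters were 500 bp on each side of the start.

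Named items were the 6 longest runs, the 5 lowest windows, the windows nearest to 70%, the 5 largest falls and rises in DIFF, the 5 largest CGI gains and losses with the same sign in ISCs, and genes of the lists, and some of these items are not reported here. The windows and lists were chosen with earlier results of these data known. Alternatives varied the minimum of calls, the CGI definition, the bins left out, pooling, thinning, window position and the limits. The analysis used Python 3.11.15, NumPy 2.4.6, pandas 2.3.3, SciPy 1.17.1, numba 0.67.0 and matplotlib 3.10.9.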

Additional observations from a re-analysis of the deposited data

Results flagged for a closer look

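The median change of low-background windows from P0 to P21 was 0.078 points in ISCs and -0.638 points in DIFF, a difference of -0.716 points, and it was singled out for the opposite signs of the 2 medians. The sign of the ISC median turned, to -0.231 points without low bins, -0.063 points by pooled calls, -0.141 points at a limit of 75% and -0.474 points in windows chosen on ISC_P21. Over all windows the medians were -0.489 points in ISCs and -1.01 points in DIFF. The same 4 libraries gave a median difference, DIFF minus ISC, of 0.082 points at P0 and -0.582 points at P21, a change of -0.663 points. With 1 library per group, neither difference was tested, and ISC_P0 was the library that chose the windows.

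The Lrfn5 window, chr12:62600001-62700000, had an ISC change of 0.089 points and a DIFF change of -3.81 points, a difference of -3.90 points. The Hoxa13 and Evx1 window, chr6:52200001-52300000, had an ISC change of -4.18 points and a DIFF change of 1.34 points, a difference of 5.52 points. By mean levels the signs were opposite in both windows. By pooled calls the Lrfn5 window was lower at P21 in both populations, from 61.7% to 59.2% in ISCs and from 60.9% to 57.1% in DIFF. The difference between the populations was not tested.

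The X chromosome, which the rule left out, had 40 of 1193 windows below 70% in ISC_P0 (3.35%), and the longest run there was 2 windows. Their median level was 66.8% in ISC_P0, 67.05% in DIFF_P0, 67.2% in ISC_P21 and 65.9% in DIFF_P21.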

How the results depend on the processing

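Of 191 values recomputed under an alternative, 91 stayed within 1.5 times of a count, or for a median within the 95% counting half-width of the mean over the windows (0.027 to 0.031 points), and 100 moved. The number of low-background windows was 1683 with CGIs of 35 or more CpGs, 649 without CpGs within 2 kb of a CGI, 99 without 1-kb bins under 30%, 340 at a limit of 65% and 3477 at a limit of 75%, where 6 runs reached 10 windows. No paired analysis was run, and each group had 1 library.

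From P0 to P21 in DIFF, windows called higher were 24 without CpGs near CGIs, 3 without low bins, 22 when chosen on ISC_P21, 76 at a difference of 2 points and 9 at 5 points, and those called lower were 3 without low bins, 112 by pooled calls, 116 when chosen on ISC_P21, 120 at 2 points and 21 at 5 points. In ISCs those called higher were 44, 5, 38, 126 and 22 in the first order, and those called lower were 4 without low bins, 98 when chosen on ISC_P21, 88 at 2 points and 12 at 5 points. The choice on ISC_P21 for these counts was added after the data were seen. Except at differences of 2 and 5 points, each alternative here and in the next paragraph chose its own windows. There were 649 without CpGs near CGIs, 99 without low bins, 1026 by pooled calls and 1088 when chosen on ISC_P21, in place of 997. The counts therefore have unlike bases, and a smaller count need not be a smaller share. Of the alternatives here and in the next paragraph, the share of all windows called was counted only by pooled calls. With the choice on ISC_P21 that share is the one of the main setting. No result about low-background windows is read from the other counts.

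For DIFF minus ISC at P0, windows called higher were 20 by pooled calls, 4 at 2 points, and 1 each with calls counted in each library alone, with CGIs of 35 or more CpGs and with thinned calls; those called lower were 80 by pooled calls, 5 with each library alone, and 1 each without low bins and at 2 points. At P21, windows called higher were 5 by pooled calls, 1 each with CGIs of 35 or more CpGs, without CpGs near CGIs and without low bins, and 0 each with each library alone, windows shifted by 50 kb and at 5 points. Those called lower were 121 by pooled calls, 12 with each library alone and at 2 points, 2 at 10 or more calls per CpG and with CGIs of 35 or more CpGs, and 0 without CpGs near CGIs, without low bins, shifted by 50 kb and at 5 points.

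With CGIs of 35 or more CpGs, the CGIs called higher and lower were 41 and 3 for age in DIFF, 56 and 5 for age in ISCs, 1 and 4 for DIFF minus ISC at P0 and 1 and 6 at P21. At a difference of 30 points they were 14 and 3, 20 and 5, 1 and 0, and 1 and 0 in that order. With 100 calls per CGI, 3 were higher at P21. The shares of all CGIs called under these alternatives were not counted, and nothing is read from these counts.

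The medians kept their sign in 45 of 52 recomputed values. The ISC change with age turned to -0.231 points without low bins, -0.063 by pooled calls, -0.141 at a limit of 75% and -0.474 when chosen on ISC_P21, and it was 0.032 without CpGs near CGIs, 0.133 at 65% and 0.041 when chosen on DIFF_P0. The P0 difference between populations turned to -0.048 points with each library alone, -0.46 by pooled calls and -0.027 when chosen on DIFF_P0, and it was 0.020 with CGIs of 35 or more CpGs, 0.1196 without low bins, 0.169 at 65%, 0.037 at 75% and 0.019 when chosen on ISC_P21. The DIFF change with age was -0.573 points at 10 or more calls, -0.498 with CGIs of 35 or more CpGs, -0.785 without CpGs near CGIs, -0.957 without low bins, -0.737 by pooled calls, -0.541 with shifted windows, -0.574 at 65% and when chosen on DIFF_P0, -0.747 at 75% and -1.04 when chosen on ISC_P21. The P21 difference was -0.530 points at 10 or more calls, -0.670 with each library alone, -0.535 with CGIs of 35 or more CpGs, -0.624 without CpGs near CGIs, -0.482 without low bins, -1.25 by pooled calls, -0.473 at 65% and -0.514 when chosen on ISC_P21. The medians at limits of 65% and 75%, and some of those with windows chosen on another library, were added after the data were seen. The causes were not tested. Repeats were not examined, since the genome letters used here held 0 lower-case bases to mark them. Without replicates, none of these counts says how far 2 animals or pools of the same group would differ.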
